A study of Homo sapiens with 8 samples.

Results

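The genes described here lie at the end of the short arm of chromosome 12. They are the protein-coding genes that start within the first 10 Mb of chromosome 12 (GRCh38) and whose mean size-factor-normalized count over the 8 samples was above 5. The choice leaves out by name GAPDH, TPI1, ENO2, SLC2A3, TIGAR, NDUFA9, MRPL51, KDM5A, FOXM1, CDCA3, TNFRSF1A and LTBR. Of the 130 protein-coding genes of the segment in the files, 33 met the rule, and 7550 genes were tested in all. Of the others, 11 were left out by name although above the count minimum, TIGAR was left out and below it, and 85 were below it, with 0 counts in every sample for 55 of these. The members were thus chosen by position and by mean count, a measured value, and the segment was picked with the fold changes of its genes already known, so the counts and medians over the 33 genes are a description, and none is offered as a test of the segment.

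The libraries were 3′ end mRNA-seq (QuantSeq 3′ FWD) of MDA-MB-231 (MDA231), an established line of triple-negative breast cancer cells. Parental cells (n = 2) were not modified. SDHB-KO cells (n = 3) had been transfected with a TALEN, a designed nuclease, against exon 1 of SDHB and selected with hygromycin, and SDHB-KO SDHA-low cells (n = 3), called SDHA-low from here on, were SDHB-KO cells that also carried an shRNA against SDHA and had been selected with puromycin. No treatment was applied to any group, and all cells were collected in full medium before confluency. Whether a subline is a single clone is not given in the sources used here. Each selection was applied to the cells of its own modification, so the effect of a modification, of its selection and of the cells that grew out cannot be told apart.

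SDHA and SDHB are subunits of mitochondrial complex II, succinate dehydrogenase, an enzyme shared by the TCA cycle and the respiratory chain that turns succinate into fumarate. The end of the chromosome 12 short arm is gene-rich and holds genes of unrelated function, among them chromatin factors, deubiquitination and COP9 signalosome genes, a prohibitin, RNA methyltransferases, a Wnt ligand and tetraspanins. None of the 33 genes encodes a subunit of complex II.

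Gene reads per sample numbered 773042 to 1427141, and the biological coefficient of variation of the fit was 21.5%, with 5 residual degrees of freedom. SDHA-low replicate 2, the deepest library, stood apart from its group: its counts differed from those of replicates 1 and 3 with a chi-square per degree of freedom of 9.44 and 10.2, beside 2.07 to 5.15 for every other pair of replicates. Without it the median log2 fold changes of the 33 genes minus those of all genes tested were 0.52, -0.69 and -0.21 in the 3 comparisons below, beside 0.52, -0.67 and -0.31 with it. SDHB had 0 to 4 reads in every sample, parental cells included, so its reads could not check the knockout. SDHA stood at 74.0 and 91.6 CPM, reads scaled to a common library size, in parental cells, at 148, 134.5 and 151 CPM in SDHB-KO cells, and at 8.45, 12.7 and 17.8 CPM in SDHA-low cells. It was lower in SDHA-low than in SDHB-KO cells by a log2 fold change of -3.46 (SE 0.28, adjusted p = 1.16e-07). Of the markers of this line, VIM, CD44, MSN, AXL and CAV1 were read in every sample and ANXA1, a further mesenchymal marker, had only 0 to 5 reads. Of 7 luminal markers, ESR1 and PGR had 0 reads in every sample and EPCAM, CDH1 and ERBB3 had 0 to 3, but KRT19 had 75 to 183 reads and GATA3 8 to 20. These are bulk samples, in which fewer cells of a kind and less RNA per cell cannot be told apart.

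The 33 genes as a set held a larger share of the gene reads in the SDHB-KO samples than in either other group. They took 0.344% and 0.365% of the gene reads in the parental samples, 0.441%, 0.466% and 0.449% in the SDHB-KO samples, and 0.313%, 0.304% and 0.301% in the SDHA-low samples. The 3 groups did not overlap, with SDHB-KO highest and SDHA-low lowest. The group means were 0.355% ± 0.015 (SD, n = 2), 0.452% ± 0.013 (SD, n = 3) and 0.306% ± 0.006 (SD, n = 3). The 95% Wilson interval of a single sample was widest in SDHB-KO replicate 1, from 0.426% to 0.456%, and covers counting error only.

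The sum is carried by a few well-read genes, so each gene was also set against its own mean over the 8 samples on the log2 scale. The median deviation of the 33 genes was -0.20 and -0.01 in the parental samples. It was 0.36, 0.31 and 0.30 in the SDHB-KO samples, and -0.25, -0.27 and -0.33 in the SDHA-low samples. Every SDHB-KO sample lay above every sample of the other groups, and 27 or 28 of the 33 genes were above their own mean there, against 12 and 16 in the parental samples and 4 to 8 in the SDHA-low samples. The same median over all 7550 genes tested lay between -0.01 and 0.03 in every sample.

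**Figure D1:**
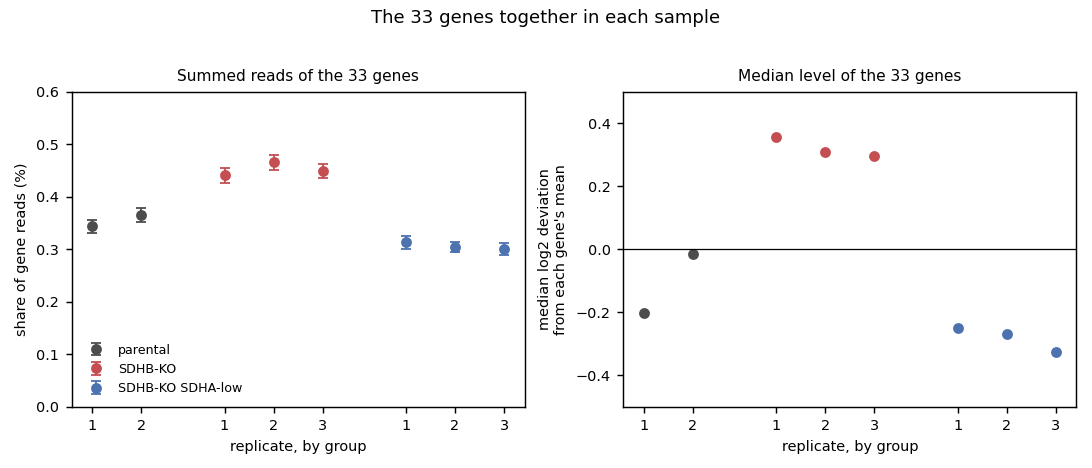
Left, share of gene reads (%) taken by the 33 genes in each sample, with 95% Wilson intervals as bars; right, median over the 33 genes of the log2 deviation from each gene's own mean. Points are samples, by group and replicate, and the SDHB-KO samples lie highest in both panels, at 0.441% to 0.466% and at 0.30 to 0.36.

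Per the study, SDHB-KO cells lack fully assembled complex II but keep SDHA in a smaller assembly, CII_low, of which SDHA-low cells have little. For SDHB-KO relative to parental cells, the log2 fold change was above 0 for 27 of the 33 genes. Over all 7550 genes tested it was above 0 for 49.9%. The median of the 33 genes was 0.52, with quartiles of 0.17 and 0.80 and a range from -0.83 to 1.85, and the median of all genes tested was -0.0007. Of the 33 genes, 1 passed an adjusted p of 0.1 (PTMS, higher), where 5.54% of all genes tested passed in either direction and 3.14% as higher. An unadjusted p below 0.05 was reached by 11 as higher, where 9.11% of all genes were, and by 1 as lower, where 8.34% were. The samples of the groups did not overlap for 19 genes that were higher, against a background of 19.3%, and for 3 that were lower, against 18.6%. ATN1 (1.85, the top of the range) and SPSB2 (1.38) count among the 27, the 11 and the 19. Both are above the count minimum through their SDHB-KO reads, so the filter favoured a rise in them. Of the 13 genes with a mean count of 50 or more, a split made after seeing the data, 10 were above 0. An unadjusted p below 0.05 was reached by 6 of these 13 as higher and by 1 as lower. The shares above are over genes of every read level, and those among well-read genes were not computed. The number of the 33 genes passing moved with single libraries: it was 0 without parental replicate 1, parental replicate 2 or SDHB-KO replicate 1, 2 without SDHB-KO replicate 2, and 7 without SDHA-low replicate 2 (PTMS, TEAD4, EMG1, NINJ2, NOP2 and PHB2 higher, CD9 lower). The number of all genes passing moved too, from 418 to 0, 46, 77, 417 and 833 in those 5 fits.

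For SDHA-low relative to SDHB-KO cells, the comparison of SDHA knockdown within SDHB-KO cells, the log2 fold change was below 0 for 31 of the 33 genes. Over all genes tested it was below 0 for 48.9%. The median was -0.65, with quartiles of -0.97 and -0.37 and a range from -1.72 to 0.49, beside 0.01 for all genes tested. An adjusted p of 0.1 was passed by 3 genes (PTMS, TEAD4 and ADIPOR2, all lower), where 1.51% of all genes passed and 1.19% as lower. An unadjusted p below 0.05 was reached by 19 as lower, where 6.66% of all genes were, and by 0 as higher, where 5.46% were. The groups did not overlap for 20 genes that were lower, against a background of 8.69%, and for 0 that were higher, against 8.70%. ATN1 and SPSB2 count among the 31 and the 20, and SPSB2 among the 19. Both are above the count minimum through their SDHB-KO reads. Of the 13 genes with a mean count of 50 or more, 12 were below 0. An unadjusted p below 0.05 was reached by 9 of these 13 as lower and by 0 as higher. Here too, the shares among well-read genes were not computed. Without SDHB-KO replicate 1 the number passing was 1, and without SDHA-low replicate 2 it was 6 (PTMS, TEAD4, ADIPOR2, MLF2, NINJ2 and PHB2). Over all genes, 39 and 362 passed in those fits, beside 114 with every library.

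For SDHA-low relative to parental cells, the log2 fold change was below 0 for 26 of the 33 genes, and for 48.6% of all genes tested. The median was -0.29, beside 0.02 for all genes tested. No gene of the 33 passed an adjusted p of 0.1 in edgeR or in DESeq2, where 0.914% of all genes passed in edgeR. An unadjusted p below 0.05 was reached by 2 (CD9 and NCAPD2, lower), where 6.46% of all genes were, and by 0 as higher, where 5.83% were. The groups did not overlap for 7 genes that were lower, against a background of 15.5%, and for EMG1, which was higher, against 15.2%. Without SDHA-low replicate 2 the number passing was 1 (CD9), and 172 of all genes passed in place of 69. The 3 comparisons share samples, so each is given with its own values and no agreement between them is counted.

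**Figure D2:**
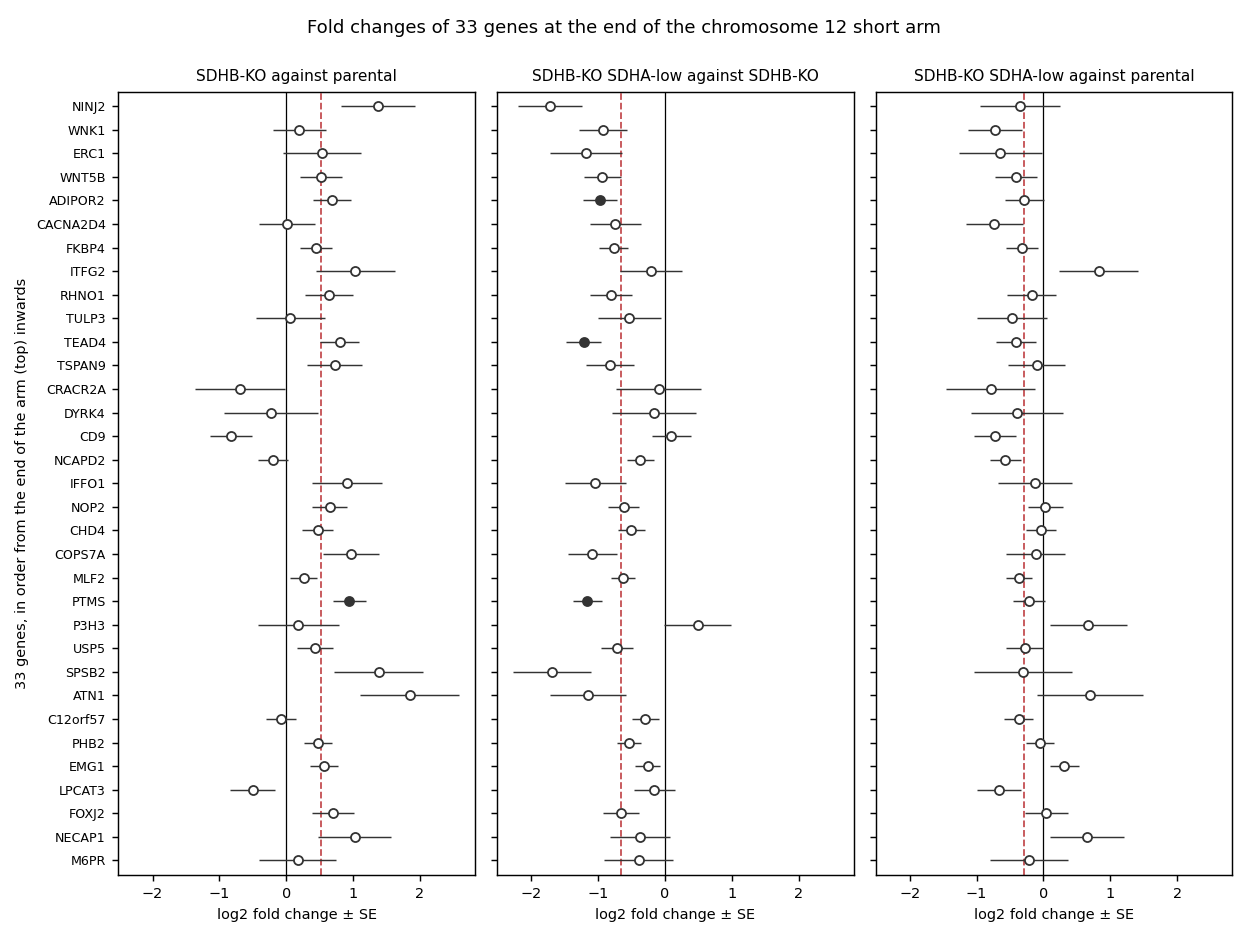
Log2 fold change ± SE of each of the 33 genes in the 3 comparisons, in order from the end of the arm at the top. Filled points passed an adjusted p of 0.1, the dashed red line is the median (0.52, -0.65 and -0.29), and most points lie right of 0 in the left panel and left of 0 in the middle panel.

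The chromatin and transcription list holds 6 of the 33 genes. All 6 had a log2 fold change above 0 in SDHB-KO relative to parental cells (median 0.86) and below 0 in SDHA-low relative to SDHB-KO cells (median -1.10), of which 1 (PTMS) and 2 (PTMS and TEAD4) passed, where 5.54% and 1.51% of all genes passed. ATN1 is above the count minimum through its SDHB-KO reads, and without it the medians of the 5 others were 0.80 and -1.04. Against parental cells, the SDHA-low median was -0.08, with 0 passing.

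PTMS (ENSG00000159335, chr12:6765516-6770952, plus strand) encodes parathymosin, a small acidic nuclear protein that binds histone H1. It was read at 139 and 142 CPM in parental cells, at 343, 259 and 209 CPM in SDHB-KO cells, and at 136, 109 and 118 CPM in SDHA-low cells. All SDHB-KO samples were above all others, and the other groups lay close together without overlapping. The share of all genes tested with SDHB-KO above both other groups, an order given for several genes below, was not computed. PTMS rose in SDHB-KO relative to parental cells (log2 fold change 0.94, SE 0.25, adjusted p = 0.0436) and fell in SDHA-low relative to SDHB-KO cells (-1.16, SE 0.22, adjusted p = 0.00958). SDHA-low relative to parental cells gave -0.22 (SE 0.25, adjusted p = 0.769). The call against parental cells ended without parental replicate 1 (adjusted p = 0.458), parental replicate 2 (0.249) or SDHB-KO replicate 1 (0.185), and its adjusted p ran from 0.00556 to 0.458 over 17 alternatives. The call in SDHA-low relative to SDHB-KO cells held in all 17, at adjusted p from 0.00039 to 0.0782.

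TEAD4 (ENSG00000197905, chr12:2959330-3040676, plus strand) is a TEA-domain transcription factor, the DNA-binding partner of YAP and TAZ in Hippo signalling. Its level was 47.4 and 67.7 CPM in parental, 127, 76.7 and 97.1 CPM in SDHB-KO, and 36.2, 48.5 and 43.5 CPM in SDHA-low cells. The SDHB-KO samples were above all others, and the other groups overlapped. TEAD4 fell in SDHA-low relative to SDHB-KO cells (log2 fold change -1.21, SE 0.26, adjusted p = 0.0265). The value for SDHB-KO relative to parental cells was 0.80 (SE 0.29, adjusted p = 0.145). The call was lost without SDHA-low replicate 1 (adjusted p = 0.108) or SDHB-KO replicate 1 (0.167), within a range of 0.00488 to 0.167 over 17 alternatives.

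CHD4, the ATPase of the NuRD chromatin-remodelling complex, stood at 157 and 183 CPM in parental cells, at 196, 277 and 233 CPM in SDHB-KO cells, and at 158, 166 and 174 CPM in SDHA-low cells. SDHB-KO samples were above all others here too, with log2 fold changes of 0.47 (SE 0.23, adjusted p = 0.289) and -0.50 (SE 0.20, adjusted p = 0.301), which did not pass. FOXJ2, a forkhead transcription factor, had 0.70 and -0.65 in the same 2 comparisons, and IFFO1, a nuclear intermediate-filament-like protein, had 0.91 and -1.04.

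ADIPOR2 (ENSG00000006831, chr12:1688574-1788674, plus strand) encodes an adiponectin receptor of the cell membrane that acts on lipid metabolism. It was read at 67.1 and 62.4 CPM in parental, 80.7, 97.8 and 132 CPM in SDHB-KO, and 67.6, 47.0 and 45.7 CPM in SDHA-low cells. The SDHB-KO samples were again highest, and the other groups overlapped. ADIPOR2 fell in SDHA-low relative to SDHB-KO cells (log2 fold change -0.97, SE 0.25, adjusted p = 0.0766), and SDHB-KO relative to parental cells gave 0.68 (SE 0.29, adjusted p = 0.208). This call held in 8 of 17 alternatives, at adjusted p from 0.0492 to 0.358. Among the libraries, it held without SDHA-low replicate 1 or 2 and was lost without any of the other 6: 0.136 and 0.134 without parental replicates 1 and 2, 0.276 without SDHA-low replicate 3, and 0.104, 0.138 and 0.358 without SDHB-KO replicates 1, 2 and 3. With replicate number as a block its adjusted p was 0.183.

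The 4 genes of metabolism, lipids and mitochondria include ADIPOR2. In SDHB-KO relative to parental cells their median log2 fold change was 0.33, with 3 above 0 and 0 passing. In SDHA-low relative to SDHB-KO cells it was -0.35, with 3 below 0 and 1 passing (ADIPOR2). Of all genes tested, 49.9% were above 0 in the former and 48.9% below 0 in the latter, and 5.54% and 1.51% passed. These shares apply to the other lists too. PHB2, the other well-read gene, encodes a prohibitin, a scaffold of the inner mitochondrial membrane. LPCAT3, a phospholipid-remodelling acyltransferase, went -0.50 and -0.16, and P3H3, a collagen prolyl hydroxylase, went 0.18 and 0.49; neither passed.

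PHB2 and EMG1 start back to back on opposite strands, 133 bases apart in the GENCODE annotation, so their promoters overlap, and the sequences are shown for that reason. EMG1 encodes a methyltransferase of the small ribosomal subunit RNA. Each line gives the 300 bases around the RefSeq start of the gene (GRCh38.p14), 5′ to 3′ on the gene's own strand, PHB2 at chr12:6970615-6970914 on the minus strand and EMG1 at chr12:6970663-6970962 on the plus strand. Capitals mark the GC box GGGCGG, searched on both strands, which is read as CCGCCC in EMG1.
PHB2: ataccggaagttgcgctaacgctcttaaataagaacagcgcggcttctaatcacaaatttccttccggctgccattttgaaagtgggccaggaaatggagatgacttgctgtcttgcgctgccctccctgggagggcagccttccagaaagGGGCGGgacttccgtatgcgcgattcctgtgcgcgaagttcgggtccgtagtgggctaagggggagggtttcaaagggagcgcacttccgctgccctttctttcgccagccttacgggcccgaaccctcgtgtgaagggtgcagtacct
EMG1: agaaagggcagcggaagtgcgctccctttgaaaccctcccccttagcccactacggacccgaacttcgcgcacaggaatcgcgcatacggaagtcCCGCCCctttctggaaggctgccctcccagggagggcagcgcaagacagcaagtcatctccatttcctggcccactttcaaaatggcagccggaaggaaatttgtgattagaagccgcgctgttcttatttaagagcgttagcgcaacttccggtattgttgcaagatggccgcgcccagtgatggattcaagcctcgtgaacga
The GC box in both lines is the same stretch of the genome. Over all 35116 promoters of that length in the RefSeq table, 45.0% hold GGGCGG or CCGCCC, and 14 of the 24 found for the 33 genes do (58.3%). CCAAT or ATTGG was in 34.6% of all and in 10 of 24 (41.7%), TATAAA or TTTATA in 11.5% and 1 of 24, and CACGTG in 7.26% and 1 of 24.

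PHB2 (ENSG00000215021) was read at 869 and 1107 CPM in parental, 1311, 1364 and 1456 CPM in SDHB-KO, and 992, 1078 and 782 CPM in SDHA-low cells. EMG1 (ENSG00000126749) was read at 183 and 227 CPM in parental, 313, 286 and 309.7 CPM in SDHB-KO, and 241, 270.1 and 249.6 CPM in SDHA-low cells. Both had all SDHB-KO samples highest, but EMG1 in SDHA-low cells was above the parental samples while PHB2 overlapped them. The log2 fold changes of SDHB-KO relative to parental cells were 0.48 (SE 0.21, adjusted p = 0.225) for PHB2 and 0.56 (SE 0.21, adjusted p = 0.158) for EMG1. Those of SDHA-low relative to SDHB-KO cells were -0.53 (SE 0.18, adjusted p = 0.218) and -0.25 (SE 0.19, adjusted p = 0.620). None passed in edgeR. EMG1 shares 1506 exon bases with LPCAT3 on the opposite strand in the canonical transcripts of the annotation, so the reads of both are uncertain.

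**Figure D3:**
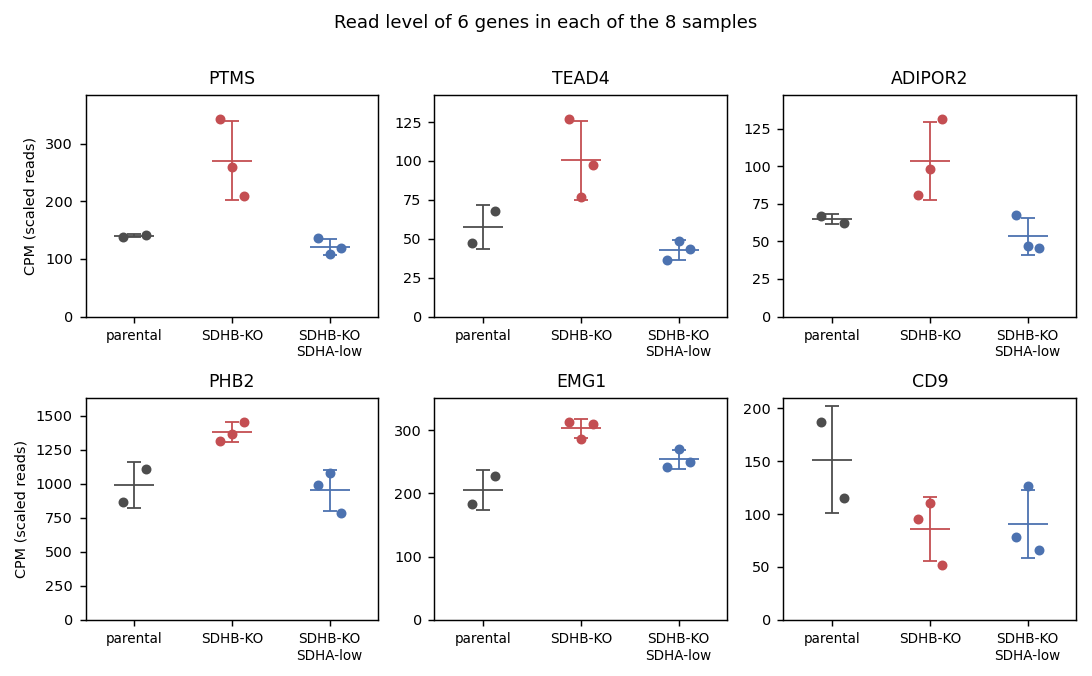
CPM (scaled reads) of 6 genes in each sample, with the group mean as a bar and ± SD as whiskers. In all but CD9 the 3 SDHB-KO samples are above every other sample. CD9 is higher in both parental samples (187 and 115 CPM) than in the SDHB-KO samples, and SDHA-low samples overlap both. The 6 genes are a selection, and the share of all genes tested with SDHB-KO above both other groups was not computed.

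EMG1 and NOP2, the 2 genes of RNA modification and ribosome biogenesis, had median log2 fold changes of 0.61 in SDHB-KO relative to parental cells and -0.44 in SDHA-low relative to SDHB-KO cells, with 0 passing in either. NOP2 encodes a methyltransferase of the large ribosomal subunit RNA. It was read at 92.6 and 88.9 CPM in parental, 157, 111 and 159 CPM in SDHB-KO and 70.0, 99.98 and 107 CPM in SDHA-low cells, with SDHB-KO samples above all others. Its log2 fold changes of 0.65 (SE 0.26, adjusted p = 0.191) and -0.62 (SE 0.23, adjusted p = 0.261) did not pass.

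The 3 genes of the ubiquitin system were all above 0 in SDHB-KO relative to parental cells (median 0.97) and all below 0 in SDHA-low relative to SDHB-KO cells (median -1.09), with 0 passing in either. SPSB2 is above the count minimum through its SDHB-KO reads, and the medians of the 2 others were 0.70 and -0.90. COPS7A, a subunit of the COP9 signalosome, was read at 16.2 and 14.6 CPM in parental, 28.7, 26.7 and 35.6 CPM in SDHB-KO, and 15.7, 11.9 and 15.6 CPM in SDHA-low cells. The SDHB-KO samples stood apart from the others, and log2 fold changes were 0.97 (SE 0.42, adjusted p = 0.227) and -1.09 (SE 0.36, adjusted p = 0.208). USP5, which disassembles unanchored ubiquitin chains, overlapped between SDHB-KO and parental samples, with 0.43 and -0.72.

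The 8 genes of membrane traffic, cilia and organelles had a median of 0.35 (7 above 0) and of -0.46 (8 below 0) in the same 2 comparisons, with 0 passing in either. This list also holds FKBP4, a co-chaperone of HSP90, and MLF2, whose role is less settled. MLF2 was read at 590.0 and 559 CPM in parental, 716, 669 and 681 CPM in SDHB-KO and 425, 501 and 412 CPM in SDHA-low cells, so that the 3 groups did not overlap. Its log2 fold changes were 0.26 (SE 0.20, adjusted p = 0.530) and -0.63 (SE 0.18, adjusted p = 0.110). FKBP4 went 0.45 (SE 0.24, adjusted p = 0.346) and -0.76 (SE 0.21, adjusted p = 0.107). With DESeq2 on the same counts, both passed in SDHA-low relative to SDHB-KO cells, FKBP4 at an adjusted p of 0.0499 and MLF2 at 0.0198, as did NINJ2 at 0.0936. ERC1, a scaffold of vesicle docking sites, went 0.53 and -1.18, TULP3, an adaptor of traffic into cilia, went 0.06 and -0.53, and NECAP1, which acts in clathrin-mediated endocytosis, went 1.02 and -0.37. ITFG2, a subunit of the KICSTOR complex at lysosomes, went 1.03 and -0.21, and DYRK4, a protein kinase, went -0.23 and -0.16. M6PR, the cation-dependent mannose-6-phosphate receptor and the last of the 33 along the arm, had 0.17 and -0.39.

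The 3 cell-surface genes differed in sign, with 2 above 0 and 1 below 0 in SDHB-KO relative to parental cells and 0 passing in any comparison. CD9, a tetraspanin found on exosomes, was read at 187 and 115 CPM in parental, 95.8, 110.1 and 51.8 CPM in SDHB-KO and 78.4, 127 and 65.7 CPM in SDHA-low cells. Both parental samples were above the SDHB-KO samples, whereas SDHA-low samples overlapped both groups. CD9 had log2 fold changes of -0.83 (SE 0.32, adjusted p = 0.167) and 0.10 (SE 0.29, adjusted p = 0.925), and of -0.73 (SE 0.31, adjusted p = 0.339) in SDHA-low relative to parental cells. NINJ2, a homophilic adhesion molecule and the first of the 33 along the arm, was read at 6.94 and 25.2 CPM in parental, 30.1, 33.4 and 58.3 CPM in SDHB-KO and 7.24, 21.6 and 5.57 CPM in SDHA-low cells. All SDHB-KO samples were above the others, with log2 fold changes of 1.37 (SE 0.55, adjusted p = 0.187) and -1.72 (SE 0.48, adjusted p = 0.104), the lowest fold change of the 33 in the second comparison. Without single libraries the first ran from 0.69 (without parental replicate 1) to 2.53 (without parental replicate 2), and the second passed in 5 of 17 alternatives, at adjusted p from 0.00222 to 0.402, and was -2.67 without SDHA-low replicate 2. TSPAN9, also a tetraspanin, overlapped between groups, with 0.72 and -0.82.

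Of 3 signalling genes, WNT5B, a non-canonical Wnt ligand, was read at 40.5 and 47.8 CPM in parental, 75.3, 61.1 and 54.0 CPM in SDHB-KO and 38.6, 26.1 and 35.7 CPM in SDHA-low cells. The 3 groups did not overlap, and log2 fold changes were 0.52 (SE 0.31, adjusted p = 0.405) and -0.93 (SE 0.28, adjusted p = 0.143). WNK1, a kinase of ion transport, went 0.20 and -0.92, and CRACR2A, a regulator of store-operated calcium entry, went -0.70 and -0.09. RHNO1, which acts in the ATR checkpoint, went 0.63 and -0.81, and NCAPD2, a condensin subunit, went -0.20 and -0.37, the 2 genes of DNA repair and chromosome structure. CACNA2D4, a calcium channel subunit, went 0.00 and -0.74, and C12orf57, in no list, went -0.08 and -0.29. None of these 7 passed in any comparison.

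Along the arm, the 33 genes ran from the start of NINJ2 at position 564296 to the end of M6PR at 8949761, 22 on the plus and 11 on the minus strand. No gene of the 33 started at 5 to 6, 7 to 8 or 9 to 10 Mb, and 16 (48.5%) started at 6 to 7 Mb. In SDHB-KO relative to parental cells the log2 fold change had no trend with the start position (Spearman rho 0.01, n = 33 genes). The 14 genes at 0 to 5 Mb had a median of 0.53, the 16 at 6 to 7 Mb 0.47 and the 3 at 8 to 9 Mb 0.70.

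In SDHA-low relative to SDHB-KO cells the fold change was lower nearer the end of the arm (Spearman rho 0.35, n = 33). The medians by 1 Mb were -1.18, -0.93, -0.76, -0.46 and -0.16 for genes starting at 0, 1, 2, 3 and 4 Mb, then -0.58 at 6 Mb and -0.39 at 8 Mb. These bins hold 3, 3, 5, 2, 1, 16 and 3 genes, too few to read an order between neighbouring bins. The value at 4 Mb is that of DYRK4 alone, and NDUFA9, left out by name, starts in the same Mb and had -1.04. In SDHA-low relative to parental cells rho was 0.46, with medians of -0.40, -0.17 and 0.04 for the 14, 16 and 3 genes. These correlations are across genes of the same 8 libraries, which are not independent replicates.

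Beyond this segment, the next 10 Mb of chromosome 12 held 15 protein-coding genes tested, with medians of 0.38, -0.47 and -0.36 in the 3 comparisons. The 346 protein-coding genes tested beyond 10 Mb had medians of 0.02, -0.10 and -0.05. In SDHA-low relative to SDHB-KO cells the median was below 0 in each of the first 8 windows of 10 Mb, from -0.71 to -0.18, and between 0.0002 and 0.17 in the other 6. Among the 116 windows of 10 Mb in the genome with at least 20 protein-coding genes tested, the window at the end of the chromosome 12 short arm, with its 44 genes including the 11 left out by name, had the highest median in SDHB-KO relative to parental cells (0.47). It had the second lowest in SDHA-low relative to SDHB-KO cells (-0.67). The segment was picked with these fold changes known, so its ranks are a description and no test.

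**Figure D4:**
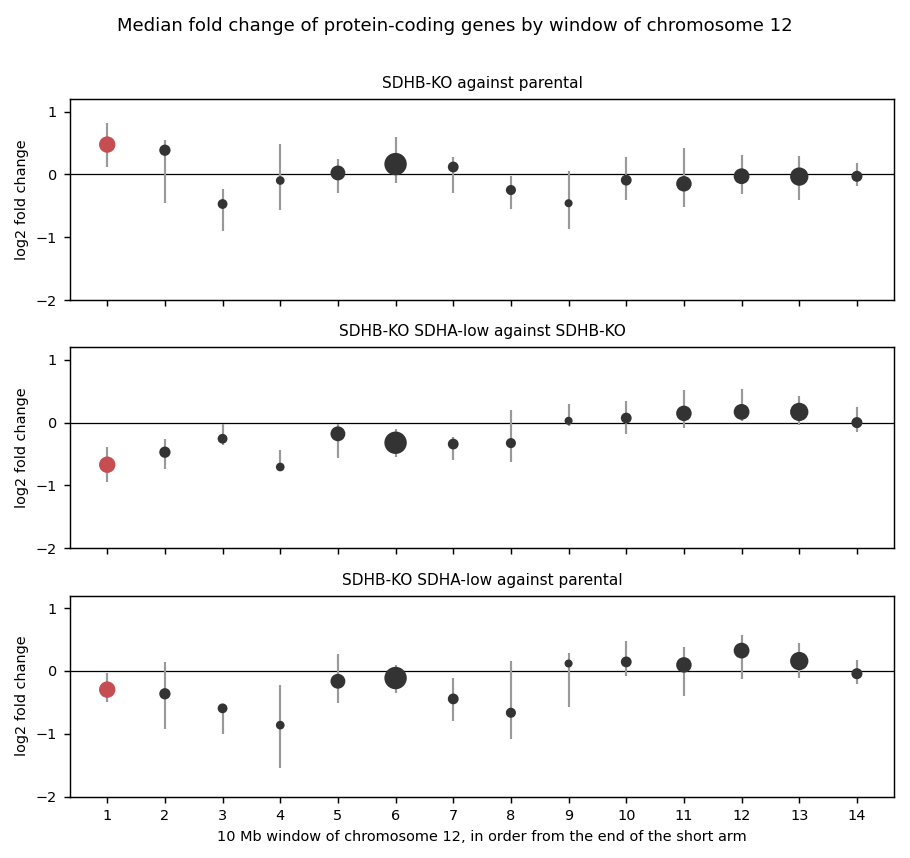
Median log2 fold change of protein-coding genes tested in each of the 14 windows of 10 Mb of chromosome 12, in order from the end of the short arm (red, 44 genes), with quartiles as bars and dot area growing with the number of genes. The first window is highest in the upper panel (0.47); in the middle panel windows 1 to 8 lie below 0.

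The 11 genes left out by name had medians of 0.41, -0.69 and -0.33 in the 3 comparisons, with 9 above 0, 11 below 0 and 8 below 0. Of all genes tested, 49.9%, 48.9% and 48.6% lay on those sides of 0, and 5.54%, 1.51% and 0.914% passed. NDUFA9, a complex I subunit, passed as higher in SDHB-KO relative to parental cells (adjusted p = 0.09995), and TPI1, the glycolytic triosephosphate isomerase, as lower in SDHA-low relative to SDHB-KO cells (adjusted p = 0.034). The 85 genes below the count minimum together had 64 and 42 reads in the parental, 40, 44 and 43 in the SDHB-KO and 22, 61 and 55 in the SDHA-low samples, which is too few for a fold change of any.

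At the threshold itself, the members with the lowest mean normalized counts were DYRK4 (5.50), ATN1 (6.18) and SPSB2 (6.82), and the genes just outside were CD163L1 (4.86), PEX5 (4.85) and CCDC77 (4.48). ATN1, a transcriptional corepressor, had 2 and 3 reads in parental, 12, 9 and 8 in SDHB-KO and 4, 9 and 3 in SDHA-low samples, and SPSB2, a substrate receptor of a ubiquitin ligase, had 4 and 4, then 14, 8 and 11, then 4, 4 and 4. Both were above the minimum through their SDHB-KO reads, so their log2 fold changes of 1.85 and 1.38 against parental cells are given as values only. The 13 members with a mean count of 50 or more, a split made after seeing the data, had medians of 0.47, -0.62 and -0.29.

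The 33 genes were like other genes in read level, with a median mean normalized count of 31.2 beside 29.5 for all 7164 protein-coding genes tested. In the 300 bases at the transcript end, where 3′ end reads fall, GC content had a median of 47.0% beside 42.7%. Across the 33 genes it had a Spearman rho of 0.03 with the fold change of SDHB-KO relative to parental cells and of -0.10 with that of SDHA-low relative to SDHB-KO cells. Across all genes tested, rho was 0.13 and -0.08 in these 2 comparisons. With the GC trend as offset, the medians of the 33 genes less those of all genes were 0.48 and -0.65, beside 0.52 and -0.67 as reported. The share of reads that mapped to several places in the genome was 10.2% to 10.9% in the parental, 14.4% to 16.1% in the SDHB-KO and 9.72% to 12.3% in the SDHA-low samples. It was highest in the SDHB-KO samples, as were the summed share and the median level of the 33 genes, and it overlapped between SDHA-low and parental samples. Of the 33, 6 (FKBP4, TULP3, NCAPD2, PHB2, NECAP1 and M6PR) have a pseudogene that bears their symbol. The part of these reads in the result was not tested. An annotated gene on the opposite strand overlaps 25 of the 33. A tested one overlaps ITFG2 and RHNO1 (FOXM1), TSPAN9 (RPS27P3), NCAPD2 (MRPL51) and SPSB2 (TPI1). MLF2 and PTMS overlap each other in this way, as do EMG1 and LPCAT3. The strand setting of the counting is not given in the sources used here, so reads of such partners may not be told apart. Exons were compared in the canonical transcript of each gene only. There, those of the tested partners overlapped for EMG1 with LPCAT3 and for 14 bases of SPSB2 with TPI1. Exons of other annotated transcripts were not compared, so the reads of the other pairs, PTMS with MLF2 among them, are also uncertain. Reads on both partners may have been tallied apart, in no gene's count, or mixed.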

How the data were processed

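Gene read counts of the 8 libraries were used as deposited. Per the labels and the study's methods, the authors trimmed the reads with Trimmomatic, removed ribosomal and mitochondrial reads with SortMeRNA and aligned them with STAR 2.5.2b to GRCh38 with annotation release 87. The authors' counts give 1 number per gene and tally reads that mapped to no gene, to several genes or to several places in separate rows. These rows, 18.8% to 28.6% of all reads, were kept out of library sizes and tests. A second set of deposited files, not used, holds counts divided by 1 factor per sample. In it, the files of SDHB-KO replicates 1 and 3 are each a scaled copy of the other's counts, so which of these 2 libraries is replicate 1 is uncertain. The numbers of the count files are used here, which touches the fits without either library and the replicate block, and no group.

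Genes with a mean size-factor-normalized count above 5 were fitted over all 8 samples in 3 groups with edgeR 4.0.16 (R 4.3.3): TMM scaling, quasi-likelihood test, Benjamini-Hochberg adjustment over 7550 genes and a threshold of 0.1. Log2 fold changes and standard errors come from this fit, and CPM values are counts divided by the TMM-scaled library size. Positions and transcripts are those of GENCODE 44, which has an entry for 56948 of the 58051 genes in the files; promoters are from the RefSeq table, which held 24 of the 33 genes and lacked ADIPOR2, ATN1, CACNA2D4, FKBP4, IFFO1, PTMS, RHNO1, TEAD4 and TSPAN9. The genes and the lists were chosen with earlier results of these data known. Named are the genes passing in any comparison, the best-read genes of each list, the first and last gene along the arm and those next to the count minimum. Others were named to account for every gene, after their values were seen. The labels call the replicates biological. The steps were tested on simulated counts, and DESeq2 1.42.0, other filters, scalings and segment ends, and the fit without each library, were tried as alternatives.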

Additional observations from a re-analysis of the deposited data

Results flagged for a closer look

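Reads that mapped to several places in the genome, which enter no gene's count, made up 14.45% of all reads in the lowest SDHB-KO sample, above all 5 samples of the other groups (at most 12.28%). This was found outside the counts used for the comparisons, and its part in the higher levels of the 33 genes in SDHB-KO cells was not tested.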

How the results depend on the processing

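Direction held under every alternative run for the median of the 33 genes less that of all genes tested, in all 3 comparisons (0.52, -0.67 and -0.31 as reported). Leaving out each library gave 0.396 to 0.601 for SDHB-KO relative to parental, -0.724 to -0.608 for SDHA-low relative to SDHB-KO and -0.347 to -0.198 for SDHA-low relative to parental cells; a segment of 0 to 8 Mb gave -0.74 in the second. Counts of genes passing moved most. In the order above they were 418, 114 and 69 as reported, 171, 64 and 13 at an adjusted p of 0.05, 773, 64 and 7 with only the 2 groups compared, and 0 to 833, 39 to 362 and 4 to 172 without single libraries, lowest without parental replicate 1 in both comparisons with parental cells and without SDHB-KO replicate 1 in the other, highest without SDHA-low replicate 2 in all. For SDHA-low relative to parental cells they were 42 above a mean count of 20 and 152 with no filter. The cause was not tested.

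Of the 33 genes, the numbers passing (1, 3 and 0 as reported) ran from 0 to 7, 1 to 6 and 0 to 1 without single libraries. In SDHB-KO relative to parental cells 2 passed with DESeq2 (EMG1, PTMS), where 394 of all genes did, and 2 with no filter, where 469 did. In the fit as reported, with 418 of all genes passing, 2 passed with a segment of 0 to 12 Mb (PTMS, YBX3). There, 2 also passed with the genes left out by name put back (NDUFA9, PTMS). With only the 2 groups compared 4 passed (CD9, NINJ2, PTMS, TEAD4), where 773 of all genes did. In SDHA-low relative to SDHB-KO cells 6 passed with DESeq2, 6 above a mean count of 20, 6 with the GC trend as offset and 5 with no filter. Of all genes, 128, 130, 138 and 142 passed in those 4 settings.

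Deviations of same-numbered samples from their group means correlated at -0.27 to 0.09 over 7 pairs, beside -0.145 to 0.269 over 14 pairs of different number. Each group was centred on its own mean, so these values are tied to each other. With the numbering of some SDHB-KO libraries uncertain too, they cannot settle whether replicate numbers pair the samples. With the replicate block, 199, 59 and 12 genes passed, 1, 2 and 0 of the 33 among them, and the medians of the 33 genes less those of all genes were 0.55, -0.66 and -0.27. Of 1158 values of single named genes under an alternative, 28 changed sign, all of genes passing neither as reported nor there. They were CACNA2D4 in SDHB-KO relative to parental cells (-0.0167 above a mean count of 20, -0.247 with the replicate block, -0.32 to 0.34 without single libraries), DYRK4 there (0.093 with the block, -0.43 to 0.0063), M6PR there (-0.41 to 1.27) and WNK1 there (-0.092 to 0.33). In SDHA-low relative to SDHB-KO cells they were CD9 (-0.27 to 0.32) and DYRK4 (-0.85 to 0.18). In SDHA-low relative to parental cells they were NOP2 (-0.0024 above a mean count of 20, -0.068 with the block, -0.064 with the GC trend, -0.081 to 0.19), M6PR (0.058 with the block, -0.80 to 0.88), NINJ2 (-1.28 to 0.81), RHNO1 (-0.62 to 0.44), TSPAN9 (-0.49 to 0.39), CHD4 (-0.14 to 0.078), USP5 (-0.61 to 0.13), PHB2 (-0.22 to 0.13) and COPS7A (-0.18 to 0.014). The whole short arm was not run as an alternative, as no centromere position was used here. Depth limits the poorly read genes among the 33, of which 20 had a mean count under 50.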

Other observations

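The first 10 Mb of chromosome 20, a window noticed after its values were seen, ranked next to that of chromosome 12 among the 116 windows. Its 45 protein-coding genes had a median log2 fold change of 0.45 in SDHB-KO relative to parental cells, with 37 above 0, and of -0.85 in SDHA-low relative to SDHB-KO cells, with 42 below 0, the lowest of all windows. The 103 genes of the first 10 Mb of chromosome 17 had -0.44 in the latter comparison, with 88 below 0. In SDHB-KO relative to parental cells, the lowest median of the 116 windows was that of chromosome 1 at 110 to 120 Mb, where 22 of 25 genes were below 0 (-0.63).

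Of segment genes that are not protein-coding, 2 were tested, and they differed. The lncRNA ENSG00000250899 had log2 fold changes of 0.24 in SDHB-KO relative to parental cells, -1.24 (SE 0.32, adjusted p = 0.0729) in SDHA-low relative to SDHB-KO cells, where it passed as lower, and -0.995 in SDHA-low relative to parental cells. The pseudogene RPS27P3 had 0.69, -0.14 and 0.56 and passed in none.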
